A study of Drosophila melanogaster with 6 samples.

Results

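The sensor peptidoglycan recognition proteins (PGRPs) and Gram-negative binding proteins (GNBPs) are fly genes of microbial cell wall recognition that do not cut the wall. Not all of them are known to bind it, and PGRP-LF acts on the sensor PGRP-LC. The 10 genes PGRP-SA, PGRP-SD, PGRP-LA, PGRP-LC, PGRP-LD, PGRP-LE, PGRP-LF, GNBP1, GNBP2 and GNBP3 were taken by name from the 17558 gene identifiers of the count table, and all 10 were present. RNA-seq covered 3 CR11538-overexpressing libraries (Gal80ts; Tub> CR11538) and 3 control libraries (Gal80ts; Tub-Gal4/P{CaryP}attP40), with 12 h between M. luteus injection and collection in both genotypes. All flies were adult males, and all were infected, so each difference below lies between infected genotypes and no value before infection was analysed here. Both genotypes carried the temperature-sensitive repressor Gal80ts and the Gal4 driver. The tubulin promoter runs this driver in nearly all tissues, and the CR11538 transgene sat in the attP40 landing site that the controls carry empty. The methods describe the experiments in general as done on independent biological replicates, and the number of flies in a library is not given in the sources used here. P-values rest on the spread among these 6 libraries, with the variance of each gene drawn toward a trend over all genes.

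In Drosophila, bacterial peptidoglycan comes in a Lys type, found in most Gram-positive bacteria such as M. luteus, and a DAP type, found in Gram-negative bacteria and bacilli. Secreted PGRP-SA and GNBP1 act together in the hemolymph on Lys-type peptidoglycan and start a protease cascade that activates the receptor Toll, whose NF-κB factors are Dif and Dorsal. The membrane receptor PGRP-LC and the intracellular receptor PGRP-LE detect DAP-type peptidoglycan and start the Imd pathway, whose NF-κB factor is Relish.

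The libraries held 17040432 to 19652500 counts each. lncRNA-CR11538 had 2291, 3358 and 3312 raw counts in the CR11538-overexpressing libraries and 5, 2 and 5 in the control libraries, which fits the labels. The male markers roX1, roX2, SP, Acp26Aa and Acp36DE were all measured, while the egg chamber genes Cp36, Cp38 and Vm26Ab summed to 1.94 to 3.06 normalized counts in CR11538-overexpressing libraries and 2.93 to 3.93 in control libraries. Normalized counts are raw counts scaled by the TMM method to a common library size. Within a genotype, libraries differed by more than sampling noise, with a chi-square of 12.96 to 35.6 per gene between CR11538-overexpressing libraries and 6.87 to 7.76 between control libraries and the largest gap between CR11538-overexpressing replicates 1 and 3.

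The sensor genes covered a wide range of levels. Levels were compared between genes as normalized counts per kb of annotated exon. PGRP-SD, a secreted PGRP that assists PGRP-SA, stood highest at 6716 ± 805 per kb in CR11538-overexpressing flies and 9210 ± 462 per kb in control flies (SD, n = 3 each). PGRP-SA came next at 1349 ± 137 per kb in CR11538-overexpressing flies and 1776 ± 89.0 per kb in control flies. GNBP3 and PGRP-LC followed and overlapped each other in both genotypes, with 634 ± 128 and 671 ± 30.3 per kb in CR11538-overexpressing flies and 910 ± 40.1 and 800.2 ± 91.5 per kb in control flies.
The next genes lay close together. In CR11538-overexpressing flies PGRP-LA and PGRP-LF overlapped at 293 ± 11.8 and 289 ± 34.4 per kb, and GNBP2 lay below both at 229 ± 17.9 per kb. In control flies GNBP2, PGRP-LA and PGRP-LF lay at 352 ± 30.5, 326 ± 19.1 and 309 ± 31.8 per kb, and each overlapped its neighbour in that order. GNBP1 had 179 ± 10.6 per kb in CR11538-overexpressing flies, just under PGRP-LE at 194 ± 3.53, and 245 ± 8.70 per kb in control flies, above PGRP-LE at 203 ± 4.02. PGRP-LD was the lowest, at 1.10 ± 0.61 per kb in CR11538-overexpressing flies and 2.57 ± 1.15 per kb in control flies.

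**Figure D1:**
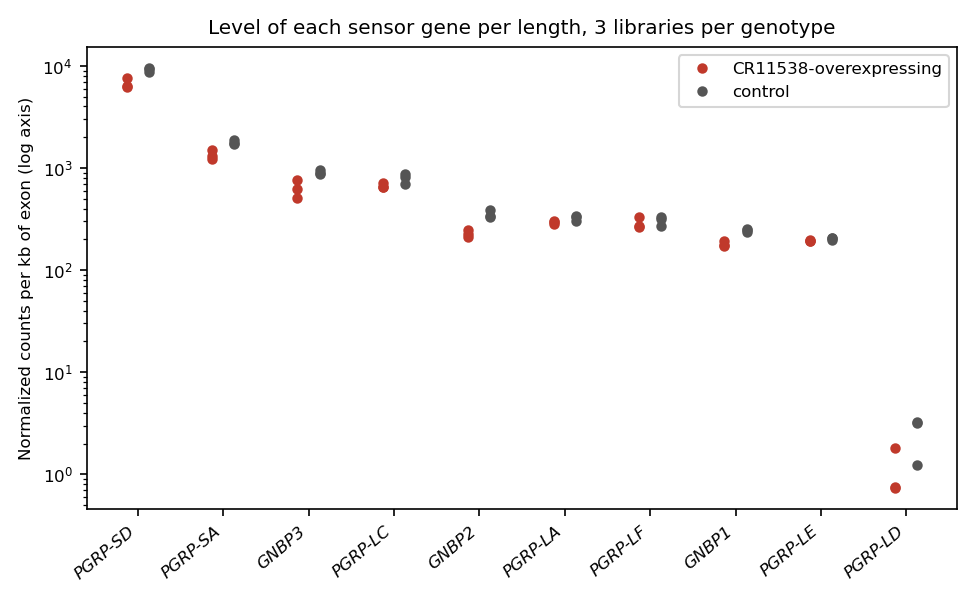
Normalized counts per kb of exon (log axis) of the 10 sensor genes, with 1 dot for each library of CR11538-overexpressing and control flies, ordered by the control level. PGRP-SD stood highest, at 6716 ± 805 per kb in CR11538-overexpressing flies and 9210 ± 462 per kb in control flies, and PGRP-LD lay far below the other 9 genes.

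Of the 10 sensor genes, 9 had enough counts to be tested, and 5 of these 9 were lower in the CR11538-overexpressing flies at a Benjamini-Hochberg adjusted p under 0.05 from edgeR's quasi-likelihood test. Over all 13159 genes tested, 14.2% were lower by the same rule. None of the 9 was higher by edgeR, against 15.0% of all genes. None was higher by DESeq2, which called 1856 genes higher over the whole table, or at an unadjusted p under 0.05. The 5 lower genes were PGRP-SA, PGRP-SD, GNBP1, GNBP2 and GNBP3, whose means in CR11538-overexpressing flies were 65.0% to 75.9% of the control means, so none fell by 2-fold. Over all genes tested, 1.23% were lower and 3.43% higher by more than 2-fold with an adjusted p under 0.05. Over the 9 genes the median log2 fold change was -0.40, and over all genes tested it was -0.0064. In 7 of the 9 genes every CR11538-overexpressing library lay below every control library, as did 23.3% of all genes tested (45.2% were separated in either direction). Without control replicate 2 the genes lower over the whole table numbered 1146 in place of 1870 and those higher 1193 in place of 1974 (1255 higher without control replicate 1), while the same 5 sensor genes still passed.

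PGRP-SA and GNBP1, the pair that recognizes Lys-type peptidoglycan upstream of Toll, were both lower. PGRP-SA (FBgn0030310) lies on chromosome X of dm6 from 11561643 to 11562779. It had 1527, 1255 and 1338 normalized counts in CR11538-overexpressing replicates 1, 2 and 3 and 1911, 1773 and 1740 in the control replicates. The groups did not overlap, and CR11538-overexpressing replicate 1 came nearest to the controls. The log2 fold change was -0.40 (standard error 0.08, adjusted p = 0.00630 from edgeR).
GNBP1 (FBgn0040323, chromosome 3L, 18675800 to 18677876), the partner of PGRP-SA, had 308, 311 and 342 normalized counts in CR11538-overexpressing flies and 439.9, 420.5 and 451 in control flies. Every CR11538-overexpressing library lay below the controls, and the SD was small in both genotypes, at 18.9 and 15.5 normalized counts. GNBP1 fell by 0.45 on the log2 scale (standard error 0.08, adjusted p = 0.00411 from edgeR). The ratio of GNBP1 to PGRP-SA per exon length was 0.115, 0.141 and 0.146 in CR11538-overexpressing libraries and 0.131, 0.135 and 0.148 in control libraries. These ratios overlapped between the genotypes.

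PGRP-SD (FBgn0035806), the most abundant sensor transcript, is a gene of 1 exon on chromosome 3L from 7651180 to 7651900. It had 4536, 4479 and 5511 normalized counts in CR11538-overexpressing flies and 6872, 6790 and 6258 in control flies. CR11538-overexpressing replicate 3 lay closest to the controls, with no overlap. PGRP-SD fell by 0.46 on the log2 scale (standard error 0.09, adjusted p = 0.00567 from edgeR), and by 0.56 without CR11538-overexpressing replicate 3. It sits within an intron of CG32373 on the same strand, which had a log2 fold change of the same size (-0.46, adjusted p = 0.0411 from edgeR). CG32373 had far lower counts than PGRP-SD, at 149 ± 25.7 normalized counts in CR11538-overexpressing flies and 205 ± 20.1 in control flies (SD, n = 3 each). PGRP-SD also shares 35 exon bases with CG7492 on the opposite strand, 4.85% of its exon length.

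GNBP3, a secreted sensor of fungal beta-glucan that also signals to Toll, was lower although the flies received a bacterium. GNBP3 (FBgn0040321, chromosome 3L, 8955021 to 8956551) had 1174, 955 and 784 normalized counts in CR11538-overexpressing flies and 1462, 1372 and 1345 in control flies. The CR11538-overexpressing libraries spread more than for any other tested sensor (SD 20.2% of the mean, against 4.40% in controls), and CR11538-overexpressing replicate 1 was the highest of them. The log2 fold change was -0.52 (standard error 0.12, adjusted p = 0.0124 from edgeR), and it ranged from -0.68 without CR11538-overexpressing replicate 1 to -0.39 without replicate 3.
GNBP2, a family member next to GNBP1 in the genome, had the largest fall of the sensors that passed. GNBP2 (FBgn0040322, chromosome 3L, 18673474 to 18675413) starts 386 bp from GNBP1 on the other strand. It had 371, 317 and 342 normalized counts in CR11538-overexpressing flies and 507, 581 and 496 in control flies. The groups were well apart, and the log2 fold change was -0.62 (standard error 0.10, adjusted p = 0.00161 from edgeR). The ratio of GNBP2 to GNBP1 per exon length was 1.43, 1.21 and 1.19 in CR11538-overexpressing libraries and 1.37, 1.64 and 1.31 in control libraries, which also overlapped.

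**Figure D2:**
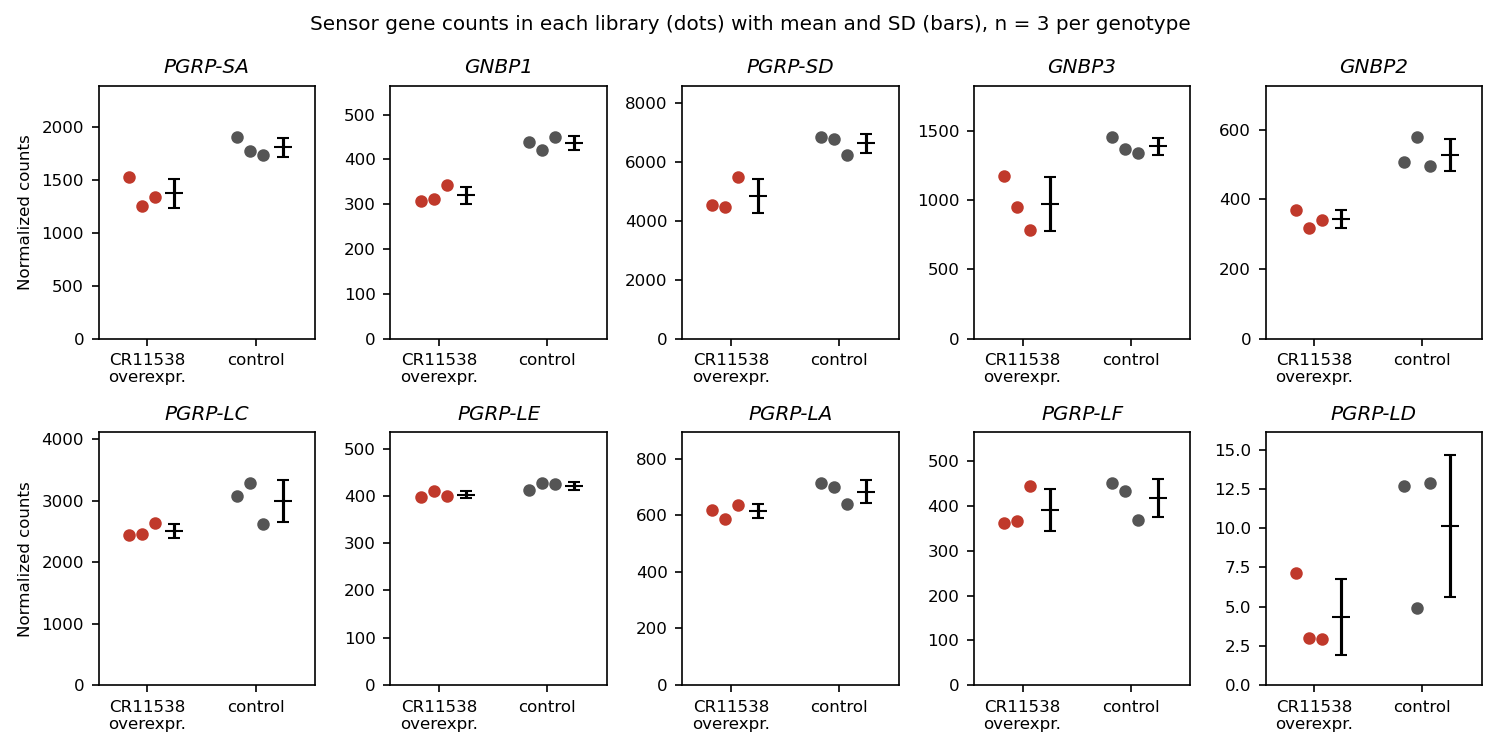
Normalized counts of each sensor gene in the 3 CR11538-overexpressing (left) and 3 control (right) libraries, with 1 dot per library in replicate order and bars for the mean and SD (n = 3 each), each panel starting at 0. The genotypes did not overlap for PGRP-SA, GNBP1, PGRP-SD, GNBP3 and GNBP2 in the upper row, while those of PGRP-LC, PGRP-LF and PGRP-LD overlapped in the lower row.

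The membrane and intracellular sensors PGRP-LC, PGRP-LE, PGRP-LA and PGRP-LF had smaller differences, and none of these 4 passed at an adjusted p under 0.05 with edgeR or DESeq2. At an unadjusted p under 0.05, 1 of the 4 was lower. All 4 log2 fold changes were below 0, with means in CR11538-overexpressing flies at 83.8% to 95.7% of the control means.
PGRP-LC (FBgn0035976, chromosome 3L, 9338810 to 9348336), the main membrane receptor of the Imd pathway, had 2435, 2457 and 2642 normalized counts in CR11538-overexpressing flies and 3079, 3288 and 2619 in control flies. Control replicate 3 lay just below CR11538-overexpressing replicate 3 and above the other CR11538-overexpressing libraries, so the groups overlapped. The log2 fold change was -0.25 (95% interval -0.45 to -0.059, unadjusted p = 0.0160, adjusted p = 0.0532 from edgeR). It passed without control replicate 3 (-0.34, adjusted p = 0.0179) and without CR11538-overexpressing replicate 3 (-0.29, adjusted p = 0.0326).
PGRP-LE (FBgn0030695, chromosome X, 15801153 to 15803880), the receptor that senses peptidoglycan fragments inside cells, had the least spread of all sensors. It had 397, 411 and 400.1 normalized counts in CR11538-overexpressing flies and 412, 427 and 424 in control flies. These values nearly touched, and the log2 fold change was -0.064 (95% interval -0.23 to 0.10, adjusted p = 0.560 from edgeR).
PGRP-LA (FBgn0035975, chromosome 3L, 9334332 to 9338336), a membrane protein that promotes Imd signalling in barrier epithelia, had 619, 588 and 637 normalized counts in CR11538-overexpressing flies and 714, 698 and 638 in control flies. The highest CR11538-overexpressing library almost reached the lowest control. The log2 fold change was -0.15 (95% interval -0.32 to 0.014, adjusted p = 0.153 from edgeR).

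PGRP-LF is a membrane protein that binds PGRP-LC and holds back Imd signalling. PGRP-LA, PGRP-LC and PGRP-LF lie in a row on chromosome 3L on the same strand, with gaps of 473 and 1272 bp. PGRP-LF (FBgn0035977, chromosome 3L, 9349609 to 9351489) had 362, 367 and 445 normalized counts in CR11538-overexpressing flies and 452, 433 and 369.5 in control flies. The groups overlapped, and the log2 fold change was -0.098 (95% interval -0.35 to 0.15, adjusted p = 0.554 from edgeR). The ratio of PGRP-LF to PGRP-LC per exon length was 0.410, 0.412 and 0.465 in CR11538-overexpressing libraries and 0.405, 0.364 and 0.390 in control libraries. The lowest CR11538-overexpressing ratio was just above the highest control ratio, and this difference was not tested.
PGRP-LF shares 602 exon bases, 44.4% of its exon length, with UGP on the opposite strand. UGP, which encodes a UDP-glucose pyrophosphorylase, had 8893 ± 2327 normalized counts in CR11538-overexpressing flies and 4905 ± 245 in control flies (SD, n = 3 each, log2 fold change 0.86, adjusted p = 0.00416 from edgeR). No source used here gives the strand setting of the counting, so the share of UGP reads in PGRP-LF, or of PGRP-LF reads not counted over this stretch, cannot be told.

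PGRP-LD could not be assessed from these counts. PGRP-LD (FBgn0260458, chromosome 3L, 5780051 to 5784685) had 7, 3 and 3 raw counts in CR11538-overexpressing libraries and 13, 5 and 12 in control libraries, which overlap, and fell below the filter. With no filter on low counts its log2 fold change was -1.21 (adjusted p = 0.189 from edgeR), and in the other settings that kept it the adjusted p ran from 0.0792 to 0.313. In the dm6 annotation 3563 of its 3957 exon bases, or 90.0%, also belong to Pmi on the same strand, and Pmi was listed at 0 in all 6 libraries. Cralbp, on the opposite strand, shares 1323 exon bases with PGRP-LD, some of them also bases of Pmi. Raw counts of Cralbp were 12, 14 and 15 in CR11538-overexpressing libraries and 4, 8 and 2 in control libraries (log2 fold change 1.50, adjusted p = 0.0369 from edgeR). How reads over 2 genes were treated is not stated in these sources, so the level of the PGRP-LD transcript cannot be read from these values.

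**Figure D3:**
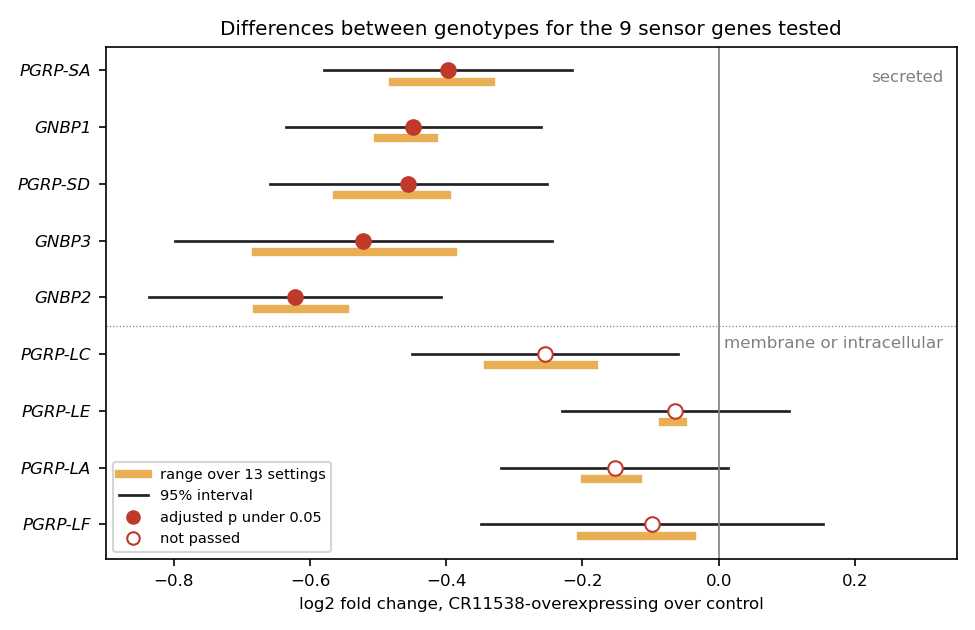
Log2 fold change (CR11538-overexpressing over control) of the 9 sensor genes tested by edgeR, with 95% intervals (thin lines) and the range over the main and 12 alternative settings (thick lines). Filled dots, at -0.62 to -0.40, passed an adjusted p of 0.05 and are the secreted PGRP-SA, GNBP1, PGRP-SD, GNBP3 and GNBP2, while open dots did not pass.

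All 5 tested sensors of the secreted PGRP and GNBP kinds passed the test and none of the 4 membrane or intracellular ones did. GNBP2 was counted as secreted with the rest of its family. The difference between the groups was not tested. The 95% interval of PGRP-LC overlapped those of all 5 secreted sensors, which ran from -0.84 for the lowest bound, of GNBP2, to -0.22 for the highest, of PGRP-SA. The summed secreted sensors were 6.39, 6.01 and 6.46 times the summed membrane and intracellular sensors per exon length in CR11538-overexpressing libraries, and 7.64, 7.30 and 8.0 times in control libraries. Much of this sum is PGRP-SD. Without it the ratios overlapped, at 1.91, 1.59 and 1.47 in CR11538-overexpressing libraries and 2.02, 1.88 and 2.14 in control libraries.

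Other genes of the same pathways give the setting for the sensors. The lists were written from general knowledge of the pathways, with earlier results of these data known. They hold inhibitors, such as nec, cact and pirk, as well as genes that pass the signal on. Their counts therefore do not give a direction of signalling. Among 11 genes of the protease cascade between the sensors and Toll, 5 were lower and 0 higher with edgeR. DESeq2 and an unadjusted p under 0.05 also gave 0 higher. All 11 log2 fold changes were below 0, with a median of -0.28. Over all 13159 genes tested, 14.2% were lower and 15.0% higher with edgeR, and 6677 had a log2 fold change below 0. modSP, the protease that receives the signal from PGRP-SA, GNBP1 and GNBP3, had 746 ± 24.2 normalized counts in CR11538-overexpressing flies and 1091 ± 49.4 in control flies (SD, n = 3 each, log2 fold change -0.55, adjusted p = 0.000414). Hayan, a later protease of the cascade, fell to 623 ± 90.2 normalized counts in CR11538-overexpressing flies, against 1263 ± 114 in control flies (log2 fold change -1.02, adjusted p = 0.000228). nec, a serpin that inhibits the cascade, had 3569 ± 166 normalized counts in CR11538-overexpressing flies and 6274 ± 160 in control flies (log2 fold change -0.81, adjusted p = 5.82e-05 from edgeR).
Among 12 genes from Toll to its NF-κB factors, 5 were lower and 0 higher with edgeR, against 14.2% lower and 15.0% higher over all genes. DESeq2 called 4 lower and 0 higher. At an unadjusted p under 0.05 edgeR had 6 lower and 0 higher, and the median log2 fold change was -0.20. The profile of GNBP2, the sensor with the lowest adjusted p, was nearest to those of dl, modSP and cact among the genes of the pathway lists. The root mean square difference of their centred log2 values over the 6 libraries was 0.10, 0.11 and 0.12. dl encodes Dorsal and cact its inhibitor Cactus, and this likeness is largely the difference between genotypes that they share.
Among 20 genes of the Imd pathway from its adaptor to Relish, 5 were lower and 0 higher with edgeR, with a median of -0.073. The shares over all genes were 14.2% lower and 15.0% higher with edgeR. DESeq2 called 1 lower and 0 higher, and at an unadjusted p under 0.05 edgeR had 7 lower and 1 higher. The count was 1 without control replicate 2, 2 without control replicate 1 or CR11538-overexpressing replicate 1, and 3 without CR11538-overexpressing replicate 3. pirk, which removes PGRP-LC from the membrane, was lower in every setting, with 720.1 ± 86.2 normalized counts in CR11538-overexpressing flies and 1374 ± 44.0 in control flies (SD, n = 3 each, log2 fold change -0.93, adjusted p = 0.000120).

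The enzymes among the PGRPs and the GNBP-like genes were counted in the same way. Among 5 amidase PGRPs tested, which cut peptidoglycan, 1 was lower and 1 higher, with a median log2 fold change of 0.13. Over all genes 14.2% were lower and 15.0% higher, and a list this short cannot be set apart from these shares. PGRP-SB1 had 10491 ± 474 normalized counts in CR11538-overexpressing flies and 13759 ± 1229 in control flies (log2 fold change -0.39, adjusted p = 0.00788 from edgeR). PGRP-SC1a had 32.8 ± 7.53 normalized counts in CR11538-overexpressing flies and 16.0 ± 2.93 in control flies (log2 fold change 1.02, adjusted p = 0.0295). It did not pass with DESeq2 (adjusted p = 0.0555) or without CR11538-overexpressing replicate 1 or 3 or any 1 control library (0.0507 to 0.0969), and it may share reads with its close copy PGRP-SC1b.
Among 3 GNBP-like genes tested, 1 was lower, against 14.2% of all genes, and this list is too short for its count to be read. GNBP-like3, a small immune-induced gene related to the GNBPs, had 15664 ± 1856 normalized counts in CR11538-overexpressing flies and 33039 ± 2372 in control flies (SD, n = 3 each, log2 fold change -1.08, adjusted p = 0.000127 from edgeR), a larger fall than that of any tested sensor. For CG12780 the log2 fold change was -0.18 (adjusted p = 0.540), and without CR11538-overexpressing replicate 3 it was -0.52 and passed (adjusted p = 0.000978), so that 2 of the 3 were then lower.

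**Figure D4:**
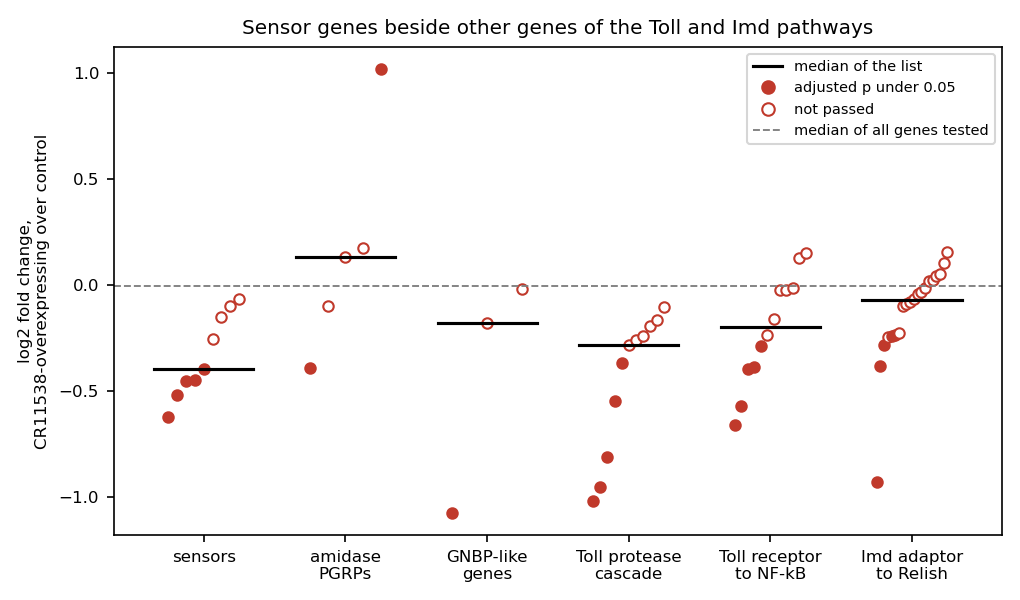
Log2 fold change (CR11538-overexpressing over control) of each tested gene in the sensors and in 5 further lists of Toll and Imd pathway genes, filled where the adjusted p was under 0.05, with black lines for list medians and a dashed line for the median of all genes tested. The median was -0.40 for the 9 sensors, -0.28 for the protease cascade, -0.20 from Toll to NF-κB, -0.073 for the Imd pathway and 0.13 for the amidase PGRPs.

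Sensor transcripts come from several tissues, and in whole flies fewer cells of a type and less RNA per cell cannot be told apart. Hemocytes, the blood cells of the fly, are one source of the secreted sensors. Of 8 hemocyte markers 7 were tested, of which 5 were higher and 0 lower with edgeR and with DESeq2 (0 lower also at an unadjusted p under 0.05), where 15.0% of all genes were higher with edgeR. The log2 fold change was 0.23 for eater (adjusted p = 0.283) and -0.10 for srp (adjusted p = 0.454), and He was below the filter. Their summed level was 12975 to 14669 normalized counts in CR11538-overexpressing libraries and 10733 to 11074 in control libraries, and none of the 8 was at 0. Hml, the most abundant of them, had 8023 ± 458 normalized counts in CR11538-overexpressing flies and 6182 ± 227 in control flies (SD, n = 3 each).
Of 6 fat body markers tested, 2 were higher and 1 was lower with edgeR, and 1 was higher and 1 lower with DESeq2, with sums of 60513 to 101810 normalized counts in CR11538-overexpressing libraries and 62338 to 72419 in control libraries. Of 9 midgut markers, where PGRP-LC and PGRP-LE act, 2 were higher and 2 lower with both tools, with log2 fold changes of -0.43 to 4.51. Their sums, which follow the most abundant markers, overlapped at 110964 to 138448 in CR11538-overexpressing libraries and 114466 to 130669 in control libraries. Both tracheal markers matched, trh and dys, had log2 fold changes below 0, and trh passed with edgeR (-0.34, adjusted p = 0.0331) but not with DESeq2. Their sum was 275 to 294 normalized counts in CR11538-overexpressing libraries and 331 to 378 in control libraries. Of 4 Malpighian tubule markers, 1 was lower and 1 higher with edgeR, and 2 were lower and 1 higher with DESeq2, with sums of 2954 to 3750.4 in CR11538-overexpressing libraries and 4327 to 4531 in control libraries. Over all genes 14.2% were lower and 15.0% higher with edgeR. The fat body, midgut, tracheal and tubule lists are too short to be set apart from these shares. The part of these cell types in the sensor differences was not tested.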

How the data were processed

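Poly(A) RNA of 6 libraries was sequenced from both ends. The authors used HISAT2 2.0.5 for alignment (dm6) and featureCounts 1.5.0-p3 for counting, and the deposited values are unnormalized counts, 1 column for each library. The sources used here do not give the strand setting or gene models of that step. Groups came from the strain labels. Names, positions and exon lengths were taken from Ensembl (release 115, dm6), which named 17252 of the 17558 identifiers. Its exon models may differ from those that were counted, which touches levels per kb.

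Counts were compared with edgeR 4.0.16 (limma 3.58.1, R 4.3.3), using filterByExpr, TMM scaling and the quasi-likelihood test with genotype as the only term, which leaves 4 residual degrees of freedom. P-values were adjusted by Benjamini-Hochberg over 13159 genes. Higher, lower, rose and fell mean an adjusted p under 0.05, whatever the fold change. Log2 fold changes include edgeR's small shrinkage. Standard errors and 95% intervals come from the coefficient without it. The method was run on simulated counts with changes of 2-fold or more. These are larger than the differences of the tested sensors, so the run does not speak to recovery at that size. Python 3.11.15, pandas 2.3.3, numpy 2.4.6 and matplotlib 3.10.9 were used for tables and figures.

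All 10 sensor genes were named. From each pathway list, at most the 3 genes with the lowest adjusted p were eligible, besides the 3 whose profile was nearest to the sensor with the lowest adjusted p and genes overlapping a sensor. Marker genes named singly (Hml, eater, srp, He, trh, dys) were added after their values were seen, and not all eligible genes are printed. The members and lists were chosen with earlier results of these data known. FASN1 and btl, planned as markers, were not matched and were not used here. Alternatives were DESeq2 1.42.0, edgeR scaled by DESeq2's size factors or by library size only, no filter, a minimum of 10 counts in all libraries, a block for the replicate number, and leaving out each library.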

Additional observations from a re-analysis of the deposited data

How the results depend on the processing

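PGRP-SA, PGRP-SD, GNBP1, GNBP2 and GNBP3 kept their direction and passed in all 12 alternatives, and PGRP-LE, PGRP-LA and PGRP-LF passed in none. GNBP3 came nearest to losing its call, with adjusted p up to 0.0456 (without control replicate 2). The sensors counted as lower ranged from 5 to 6 with 1 library left out, the 6th being PGRP-LC, and none was higher in any setting. With 1 library left out, genes lower over the whole table ranged from 1146 to 1889 and genes higher from 1193 to 2024, amidase PGRPs higher from 0 to 1, GNBP-like genes lower from 1 to 2 and Imd genes lower from 1 to 4. Genes lower from Toll to NF-κB ranged from 4 to 5, and those of the protease cascade from 5 to 7. DESeq2 called 0 amidase PGRPs higher, 4 genes lower from Toll to NF-κB and 1 Imd gene lower. The cause of these changes was not tested. Same-numbered libraries deviated together weakly (correlations of 0.13, 0.035 and 0.071 across genes) and shared only a number. Pairs with unlike numbers had correlations of -0.12 to 0.046, which overlap these. With the replicate number as a block, 5 sensors were lower, 1924 genes lower and 2061 higher. PGRP-LD had 3 to 13 raw counts in a library, too few for the filter.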
